A study of Mus musculus with 96 samples.

Results

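The genes of the proteasome are described here across 12 groups of mouse bone marrow-derived macrophages. They were taken as every gene of the count table whose symbol begins with Psma, Psmb, Psmc, Psmd or Psme and ends in a number, leaving out Psmb8 and Psmb9, 2 genes known to be raised by interferon. That gave 41 of 23481 gene symbols: 8 genes of the alpha ring, 9 of the beta ring, 9 of the base, 8 of the lid, 3 assembly chaperones and 4 activators. Of these, 38 had enough counts to be tested among 4963 genes, and Psma8 (5 counts in all 96 libraries), Psmc5 (236 counts) and Psmd9 (356 counts) did not. The tested genes were 16 of the core (both rings), 8 of the base, 8 of the lid, 2 chaperones and 4 activators.

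Macrophages were grown with MCSF from the marrow of male C57BL/6 mice 8 weeks old, and RNA was counted at the 3′ ends of transcripts in 8 libraries per group, 4 libraries on each of 2 plates. In 10 groups, named as labelled, the cells were given Halofuginone, tBHQ, Torin, BrefA, pGE2, Tunicamycin, Dexa, Caspase-1, Baflo or ZVAD, followed after 30 min by LPS (lipopolysaccharide, an outer membrane molecule of bacteria to which macrophages respond), with lysis 4 h later. The DMSO group had the solvent and the same LPS, and the NoStim group had no LPS and no stated solvent. The sources used here state no doses, and no compound was given without LPS. Library names end in the letters A to D for NoStim and E to H for all other groups, on both plates. The labels do not explain the letter, and it and LPS cannot be told apart. Between DMSO and NoStim libraries the solvent and LPS cannot be told apart either. Whether libraries came from separate cultures, or those of 1 letter on both plates from the same one, is not stated. Deviations from each group's mean on each plate, over 2670 genes, correlated by over 0.1 in 32 of 48 such pairs (mean r 0.163). The 8 libraries of a group may thus not be independent, and p-values measure only the spread between them, which may be technical.

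The proteasome is the barrel-shaped protease that degrades proteins marked with ubiquitin. Its core is built of rings of alpha subunits, which form the gate, and rings of beta subunits, of which Psmb5, Psmb6 and Psmb7 carry the constitutive proteolytic sites. The regulatory particle on the barrel's end has a base with the Psmc ATPases, which unfold the substrate and thread it in, and a lid with Psmd14, the enzyme that removes ubiquitin. Psmb10 is a proteolytic subunit of the immunoproteasome, which is known from macrophages exposed to interferon. Psme1 and Psme2 together form a cap that can replace the regulatory particle, Psme3 forms a nuclear cap of its own, and Psme4 a further one.

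Psme1 and Psme2 lie close together on chromosome 14 of the mm10 build (GENCODE annotation). Psme1 (ENSMUSG00000022216.17) runs from 55578123 to 55581529 on the plus strand, and Psme2 (ENSMUSG00000079197.10) from 55587441 to 55591113 on the minus strand. Their promoter windows, 250 bases before to 50 bases after the transcript start from RefSeq (GRCm38.p6), are shown because the products work as partners while only Psme2 passed the test under LPS. The window of Psme1 is chr14:55578244-55578543 on the plus strand, and that of Psme2 is chr14:55591052-55591351 on the minus strand. Capitals mark the core of the element bound by interferon-activated factors (TTTC, then any 2 bases, then TTTC), searched on both strands.
Psme1: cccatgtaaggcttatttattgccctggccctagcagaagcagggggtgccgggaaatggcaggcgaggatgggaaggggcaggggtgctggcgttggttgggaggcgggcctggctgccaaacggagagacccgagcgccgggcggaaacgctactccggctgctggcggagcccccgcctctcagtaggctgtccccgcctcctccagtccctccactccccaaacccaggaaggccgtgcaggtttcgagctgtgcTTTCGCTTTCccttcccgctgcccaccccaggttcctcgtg
Psme2: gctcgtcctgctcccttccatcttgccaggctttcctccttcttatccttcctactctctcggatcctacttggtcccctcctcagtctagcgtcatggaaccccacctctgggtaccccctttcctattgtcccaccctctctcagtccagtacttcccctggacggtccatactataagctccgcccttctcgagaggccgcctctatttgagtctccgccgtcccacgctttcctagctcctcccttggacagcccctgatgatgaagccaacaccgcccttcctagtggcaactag
The match in the Psme1 window lies after the transcript start, and the Psme2 window held no match, nor did a second window that RefSeq gives for Psme2. Of 41 genes, 34 had a promoter in the RefSeq table, and 4 of them (11.8%) held this core: Psmb3, Psmd4, Psmd9 and Psme1. Among all 32851 promoters 3.44% held it. The letters TGACNNNGC, the core of the element bound by NRF1 and NRF2, stood in 6 of the 34 genes (17.6%): Psmb5, Psmb6, Psmc6, Psmd12, Psmd9 and Psme4. Among all promoters 12.4% held it. Psmd9 held both, at different places in its window, and a match is a description of the letters only. The shares differ in unit. A proteasome gene counted if any of its promoters matched (37 promoters for 34 genes), while all promoters were counted singly.

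Library totals ranged from 80196 to 379198 counts. Halofuginone libraries were the shallowest, with 80196 to 136526 counts and a median share of 44.4% for the ribosomal RNA precursor Rn45s, against a median of 19.96% in DMSO libraries. The proteasome genes together had a median of 147.5 counts per Halofuginone library, against 1115.5 per DMSO library. All 7 macrophage markers found by symbol of 8 listed (among them Csf1r, Cd68 and Lyz2) had counts. Their summed level had a median of 1670 CPM (counts scaled to 1000000 per library) in Halofuginone libraries, against 1777 CPM in DMSO libraries. Cd3e, Elane, Mpo and Pdgfra, markers of T cells, neutrophils and fibroblasts, were at 0 in every library. Others of the same lists had counts over all libraries: 31 for Cd3d, 78 for S100a8, 13 for S100a9, 33 for Col1a2 and 11 for Col1a1. The dendritic cell marker Xcr1 had 507 counts and the endothelial marker Kdr 192 counts. The part of these cells in any result was not tested.

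**Figure D1:**
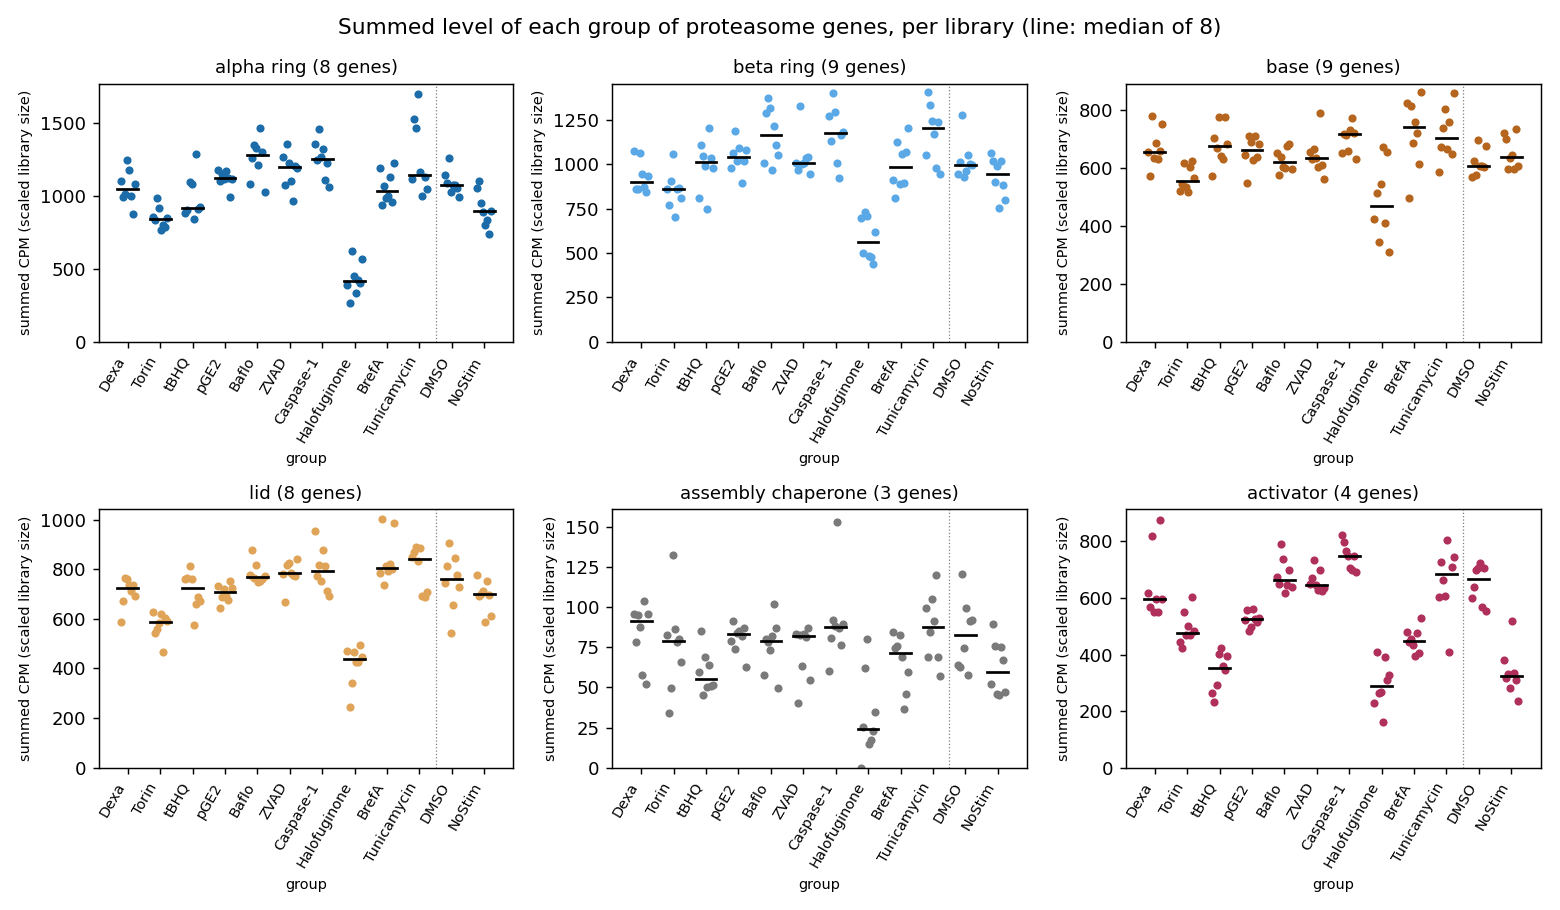
Summed level of the proteasome genes of each role in CPM (vertical axes, from 0) by group (horizontal axes), 1 point per library and a line at the median of 8. Alpha ring, beta ring and lid points of Halofuginone libraries sit below those of DMSO libraries. Activator medians are lowest in Halofuginone, NoStim and tBHQ libraries. In DMSO, Dexa, Baflo, ZVAD, Caspase-1 and Tunicamycin libraries they lie between 596 CPM (Dexa) and 748 CPM (Caspase-1).

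Summed over their genes, the roles had ranges of unlike width, as the plot of summed levels by role shows. The lid ran from 748 to 879 CPM in Baflo libraries, and the alpha ring from 995 to 1695 CPM in Tunicamycin libraries. The alpha ring summed to 988, 1075 and 1261 CPM in DMSO libraries (lowest, median and highest of 8 libraries, the order used throughout), against 737, 893 and 1098 CPM in NoStim libraries. Activators summed to 553, 667 and 724 CPM in DMSO libraries, against 237, 325 and 519 CPM in NoStim libraries. The mean sum was 649 CPM in DMSO and 339 CPM in NoStim libraries, of which Psme2 alone gave 465 and 151 CPM. Psme4 also had a higher mean in DMSO libraries (63.1 against 49.8 CPM). Means of Psme1 (104 against 115 CPM) and Psme3 (17.1 against 23.7 CPM) were lower there. Activator libraries did not overlap between these groups on this scale and alpha ring libraries did. On plain library totals activators ranged from 514 to 767 CPM in DMSO libraries and from 231 to 571 CPM in NoStim libraries, which overlapped. With Rn45s and Lars2 left out of the totals they ranged from 699 to 925 CPM in DMSO libraries and from 354 to 801 CPM in NoStim libraries, which also overlapped. Base genes summed to 569.8, 607 and 697 CPM in DMSO libraries, against 598, 639 and 733 CPM in NoStim libraries, which overlapped. With Rn45s and Lars2 left out the base ranged from 705 to 892 CPM in DMSO libraries and from 895 to 1109 CPM in NoStim libraries, with no overlap. These sums were given no test. In bulk libraries a smaller share of cells and less RNA per cell cannot be told apart.

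Under LPS few proteasome genes changed, and the change was large in 1 activator gene. Here and below, a change under LPS is that of DMSO against NoStim libraries, where solvent and letter may play a part. In DMSO libraries 5 of 38 genes were higher than in NoStim libraries and 1 was lower by edgeR's quasi-likelihood test (adjusted p under 0.05 over all genes), against 19.5% of all tested genes higher and 16.6% lower. Those that rose were Psme2, Psmd10, Psmb10, Psma6 and Psmd11, 13.2% of the genes, and Psmd8 fell. All fold changes below are log2 ± SE with n = 8 libraries per group. The median log2 fold change was 0.062 over the 38 genes and -0.036 over all genes. With RLE scaling the median of all genes moved to -0.19 and that of the proteasome genes to -0.089, and 5 proteasome genes were then called higher and 4 lower.

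Psme2, the partner of Psme1 in the interferon-associated cap, measured 394, 467 and 555 CPM in DMSO libraries, against 104, 159 and 191 CPM in NoStim libraries. Every DMSO library lay above every NoStim library, and this was the case for no other proteasome gene, against 8.62% of all tested genes. Its log2 fold change was 1.62 ± 0.13 (adjusted p = 2.26e-23), with 1.56 on plate 1 alone and 1.66 on plate 2 alone. The 3 other activator genes did not pass. Psme1 measured 73.7, 107 and 149 CPM in DMSO libraries, against 58.6, 83.9 and 272 CPM in NoStim libraries, and its log2 fold change was -0.12 ± 0.31 (adjusted p = 0.802). Values of Psme1 overlapped widely, with a single NoStim library, A of plate 2, as the highest. The sign turned in analyses without it, as the log2 fold change was 0.39 (adjusted p = 0.451) without the libraries of replicate position 1, which include it, and 0.30 (adjusted p = 0.599) on plate 1 alone, and other libraries were left out there too. For Psme3 the log2 fold change was -0.42 ± 0.36 and for Psme4, whose product caps proteasomes in the nucleus, 0.33 ± 0.23. Psme2 has a near copy named Psme2b, and the treatment of reads shared by both is not stated in the sources used here.

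**Figure D2:**
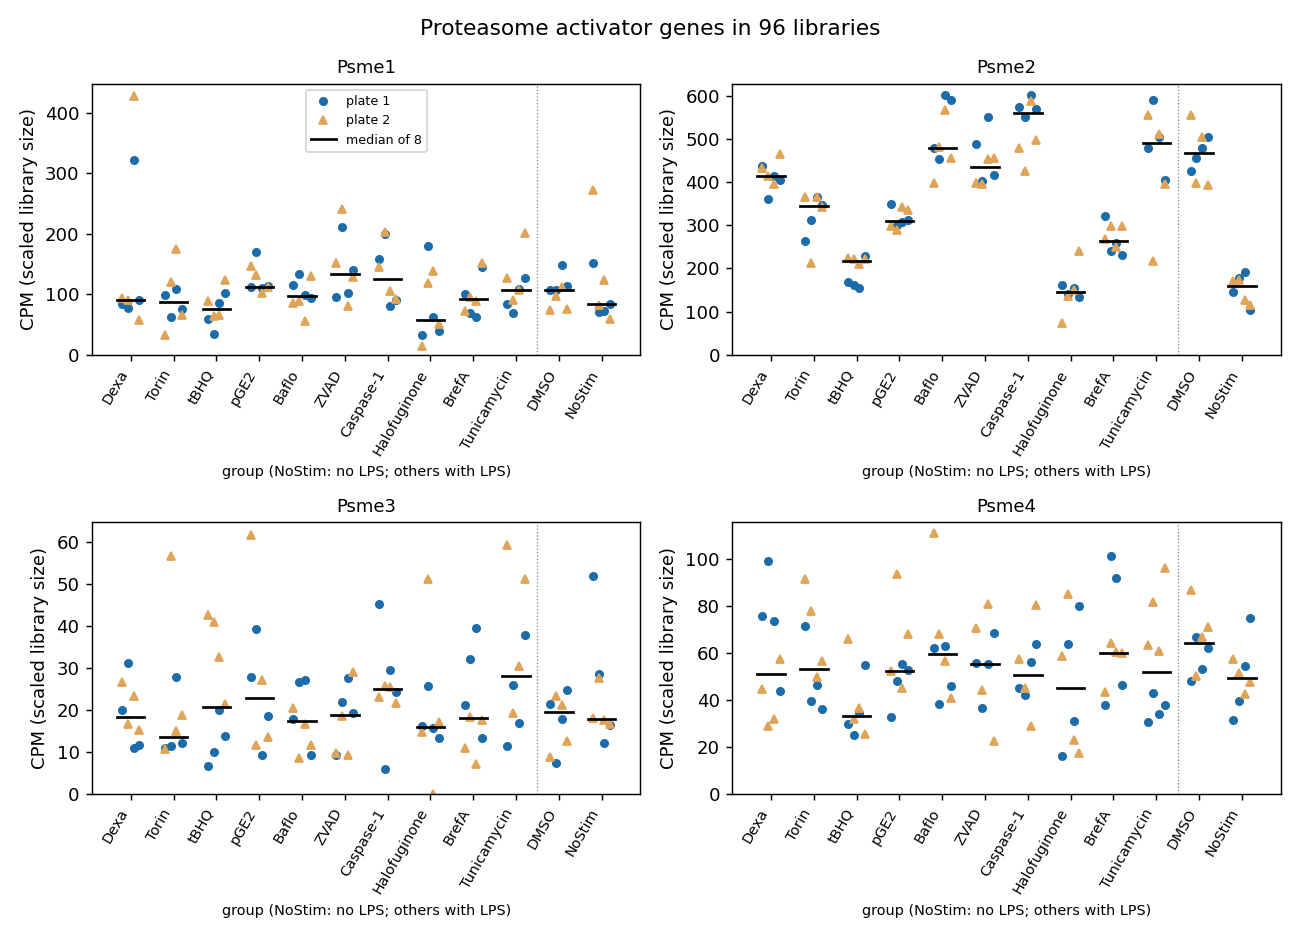
Level of Psme1, Psme2, Psme3 and Psme4 in CPM (vertical axes, from 0) in each library by group (horizontal axes), circles for plate 1, triangles for plate 2 and a line at the median of 8. Psme2 lies between 394 and 555 CPM in DMSO libraries and between 104 and 191 CPM in NoStim libraries, while Psme1, Psme3 and Psme4 overlap between these groups.

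In the core 2 of 16 tested genes rose under LPS. Psmb10 (ENSMUSG00000031897.9, chromosome 8, 105935735 to 105938444), the immunoproteasome subunit that takes the place of Psmb7, measured 132, 175 and 251 CPM in DMSO libraries, against 61.9, 86.3 and 132 CPM in NoStim libraries. Only the lowest DMSO library and the highest NoStim library overlapped, and its log2 fold change was 1.03 ± 0.17 (adjusted p = 5.77e-08). The constitutive proteolytic genes did not pass, with log2 fold changes of -0.34 ± 0.22 for Psmb5, 0.19 ± 0.16 for Psmb6 and 0.29 ± 0.20 for Psmb7. Psma6 (ENSMUSG00000021024.14, chromosome 12, 55384222 to 55418454), an alpha ring gene, measured 170.3, 221 and 273 CPM in DMSO libraries, against 78.9, 106 and 175 CPM in NoStim libraries. The ranges overlapped at their edges, and the log2 fold change was 0.96 ± 0.16 (adjusted p = 1.35e-07). None of the other 6 tested alpha ring genes passed, with log2 fold changes from -0.31 (Psma1) to 0.39 (Psma3).

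In the regulatory particle 1 of 16 base and lid genes rose and 1 fell. Psmd11, a lid scaffold gene, measured 142, 256 and 312 CPM in DMSO libraries, against 109, 163 and 187 CPM in NoStim libraries, with overlap at the low end of the DMSO libraries (log2 fold change 0.61 ± 0.13, adjusted p = 5.88e-05). Psmd8, another lid gene, measured 80.5, 104 and 126 CPM in DMSO libraries, against 109, 130.2 and 184 CPM in NoStim libraries. Its log2 fold change of -0.42 ± 0.17 (adjusted p = 0.0418) missed the threshold in 8 of 14 alternative analyses, including each plate alone, with adjusted p of up to 0.420. None of the 5 tested ATPase genes of the base passed. Their median was -0.30. Among assembly chaperones, Psmd10, which helps the base to assemble, measured 27.1, 45.0 and 81.4 CPM in DMSO libraries, against 10.4, 23.5 and 42.9 CPM in NoStim libraries. The groups overlapped and the log2 fold change was 1.05 ± 0.28 (adjusted p = 0.00147), but adjusted p was 0.0592 on plate 1 alone. Psmd14, the lid's deubiquitinase, did not pass (0.17 ± 0.23).

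**Figure D3:**
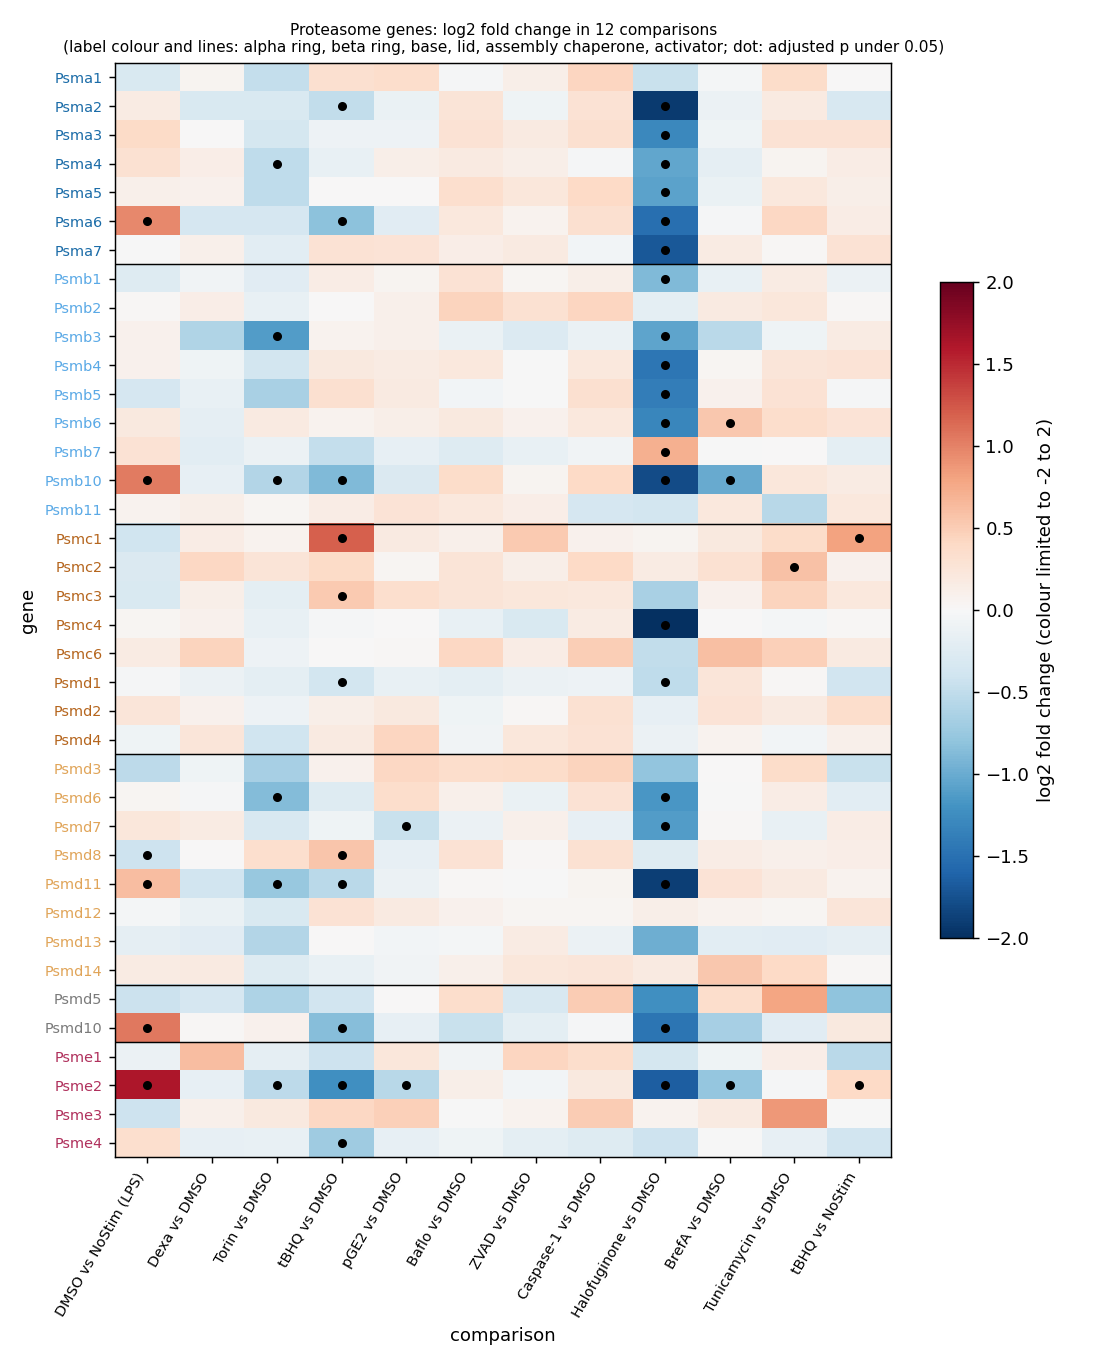
Log2 fold change (colour, limited to -2 to 2) of 38 proteasome genes (vertical axis, grouped by role with lines between roles) in 12 comparisons (horizontal axis), with a dot where adjusted p was under 0.05. The Halofuginone column holds 20 dots, the tBHQ column 11, and the Dexa, Baflo, ZVAD and Caspase-1 columns none.

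Each compound was next set against DMSO libraries with the same LPS. All of these comparisons share the DMSO libraries and are given side by side. Across 12 comparisons 13 of 38 genes (34.2%) were called in none and 11 (28.9%) in 1, against 27.3% and 26.6% of all tested genes. Psme2 was called in 7, Psmb10 in 5 and Psmd11 in 4, as the map of fold changes shows.

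Halofuginone, an inhibitor of prolyl-tRNA synthetase, lowered most core genes and fewer of the regulatory genes. By the same test 19 of 38 genes fell in Halofuginone libraries (50.0%) and 1 rose, against 25% of all tested genes lower and 15.3% higher. The median log2 fold change was -0.93 over the proteasome genes and -0.20 over all genes. In the core 12 of 16 fell (median -1.17), in base and lid 5 of 16 (median -0.50) and among activators 1 of 4 (median -0.38). Base and lid differed, with 2 of 8 base genes lower (median -0.33) and 3 of 8 lid genes (median -0.88). The lid median lay nearer to those of the beta ring (-1.05) and alpha ring (-1.28) than the base median did. The differences between these gene groups were not tested. Summed over all 17 genes each, tested or not, the core had a median of 2070 CPM in DMSO libraries, and base and lid 1392 CPM. Base and lid genes thus had fewer counts behind a call, and the part of this in the numbers called was not tested. The counts behind these values were few, and the larger share of Rn45s stands beside every one of them. Its part in the result was not tested. Without Rn45s and Lars2 in the totals 19 genes were again lower and 1 higher. TMM rescaled the library sizes in both fits, so this cannot show the part of Rn45s.

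Of the alpha ring, 6 of 7 tested genes fell, with log2 fold changes from -1.04 (Psma4) and -1.07 (Psma5) through -1.28 (Psma3), -1.51 (Psma6) and -1.69 (Psma7) to -1.91 (Psma2). Psma2 measured 26.7, 36.2 and 78.0 CPM in Halofuginone libraries, against 126, 154 and 196 CPM in DMSO libraries, with no overlap (log2 fold change -1.91 ± 0.28, adjusted p = 5.97e-09). Its group totals were 23 counts in Halofuginone libraries and 328 counts in DMSO libraries. Psma1 did not pass (-0.44 ± 0.32). The ranges of 8 genes did not overlap between Halofuginone and DMSO libraries, all with Halofuginone lower: Psma2, Psma6, Psma7, Psmb4, Psmb6, Psmb10, Psmd11 and Psme2. Of all tested genes 7.72% had every Halofuginone library below every DMSO library.

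Of the beta ring, Psmb10, Psmb4, Psmb5, Psmb6, Psmb3 and Psmb1 fell. Psmb10 measured 14.6, 51.2 and 91.9 CPM in Halofuginone libraries, against 132, 175 and 251 CPM in DMSO libraries (log2 fold change -1.79 ± 0.25, adjusted p = 1.27e-09). Psmb6, the gene of the caspase-like site, measured 29.3, 83.0 and 146 CPM in Halofuginone libraries, against 156, 201 and 241 CPM in DMSO libraries (-1.31 ± 0.23, adjusted p = 1.26e-06). Neither gene's ranges overlapped. Psmb5, the gene of the chymotrypsin-like site, measured 0, 13.1 and 93.6 CPM in Halofuginone libraries, against 21.3, 70.7 and 88.5 CPM in DMSO libraries. These ranges overlapped fully, its log2 fold change was -1.38 ± 0.41 (adjusted p = 0.00397), and on plate 1 alone adjusted p was 0.409.

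Psmb7, the gene of the trypsin-like site, went the other way. It measured 76.8, 172 and 267 CPM in Halofuginone libraries, against 65.1, 102 and 135 CPM in DMSO libraries. The ranges overlapped, and the group totals were 93 counts in Halofuginone libraries and 214 counts in DMSO libraries. The log2 fold change was 0.71 ± 0.23 (adjusted p = 0.00990), 0.78 on plate 1 alone (adjusted p = 0.0720) and 0.55 on plate 2 alone (adjusted p = 0.208). Over 15 alternatives adjusted p reached at most 0.282, and the call was lost in 5. At least part of Nek6 lies within 1000 bases of the 3′ end of Psmb7, on the opposite strand, and a copy named Psmb7-ps2 exists. The use of strand in counting is not stated in the sources used here. This is not particular to Psmb7, as 11 of the 41 genes had a neighbour within that distance, 9 of them on the opposite strand. Psmb5, Psmb6 and Psme2 also have named copies.

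**Figure D4:**
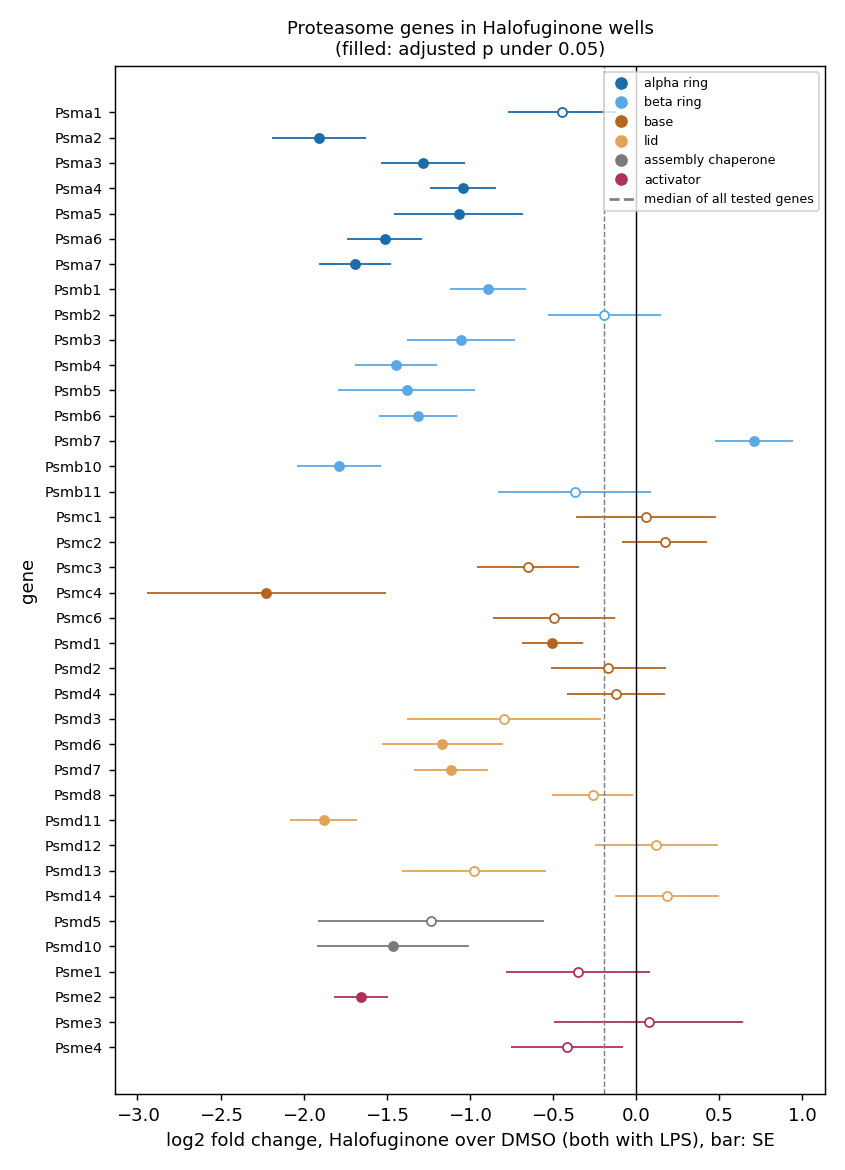
Log2 fold change in Halofuginone over DMSO libraries (horizontal axis, bars show SE, n = 8 libraries per group) for 38 proteasome genes (vertical axis, coloured by role), filled where adjusted p was under 0.05. Core genes cluster around their median of -1.17, Psmb7 alone is called at 0.71, and several base genes lie near 0.

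In the regulatory particle the response was uneven. Psmd11 measured 15.6, 76.6 and 91.9 CPM in Halofuginone libraries, against 142, 256 and 312 CPM in DMSO libraries (log2 fold change -1.88 ± 0.20, adjusted p = 1.32e-14). Psmd6 (-1.17 ± 0.36) and Psmd7 (-1.11 ± 0.22), both lid genes, and Psmd1 (-0.50 ± 0.18), a base scaffold gene, also fell. The call of Psmd1 was lost in 6 of 15 alternatives, with adjusted p of up to 0.624. Psmd14 (0.19 ± 0.31), Psmd12 (0.12 ± 0.37), Psmc1 (0.06 ± 0.42) and Psmc2 (0.17 ± 0.26) did not pass. Psmc4 measured 0, 0 and 13.3 CPM in Halofuginone libraries, against 10.7, 23.1 and 63.0 CPM in DMSO libraries. It rests on 3 counts in Halofuginone libraries and 57 counts in DMSO libraries, a ratio of 0.198 after division by the scaled library sizes of each group (95% exact Clopper-Pearson interval 0.0397 to 0.610, counting error only). Of the chaperones Psmd10 fell (-1.46 ± 0.46, adjusted p = 0.00627) and Psmd5 did not pass (-1.23 ± 0.68, adjusted p = 0.139).

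Among activators only Psme2 passed in Halofuginone libraries, where it measured 73.2, 145 and 241 CPM, against 394, 467 and 555 CPM in DMSO libraries. No library of one group reached the other, and the log2 fold change was -1.65 ± 0.16 (adjusted p = 1.15e-16). Psme1 (-0.35 ± 0.43), Psme3 (0.07 ± 0.57) and Psme4 (-0.41 ± 0.34) did not pass, and their ranges overlapped with those of DMSO libraries.

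In tBHQ libraries Psme2, Psmb10, Psma6, Psmd11 and Psmd10 were lower than in DMSO libraries, and 2 base ATPase genes were higher. This comparison shares its DMSO libraries with that of LPS. In tBHQ libraries 3 of 38 genes rose and 8 fell, against 17.3% of all tested genes higher and 19.1% lower, so that the shares of 7.89% and 21.1% were under and near the background. With RLE scaling 5 rose and 5 fell, and the median of all genes moved to 0.19 from 0.044. Psme2 measured 154, 216 and 230.0 CPM in tBHQ libraries, against 394, 467 and 555 CPM in DMSO libraries, with no overlap (log2 fold change -1.22 ± 0.13, adjusted p = 8.02e-16). Psme4 fell too (-0.71 ± 0.25, adjusted p = 0.0178), but missed the threshold in 7 of 15 alternatives, with adjusted p of up to 0.142. Psmb10 measured 50.4, 97.1 and 146 CPM in tBHQ libraries, against 132, 175 and 251 CPM in DMSO libraries, with slight overlap (-0.88 ± 0.17, adjusted p = 4.97e-06). Psma6 measured 80.4, 127 and 150.1 CPM in tBHQ libraries, against 170.3, 221 and 273 CPM in DMSO libraries, with no overlap (-0.81 ± 0.16, adjusted p = 8.10e-06).

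Psmd10 (-0.85 ± 0.28), Psmd11 (-0.54 ± 0.13), Psma2 (-0.49 ± 0.17) and Psmd1 (-0.36 ± 0.14) completed those that fell in tBHQ libraries. The call of Psmd1 was lost in 9 of 15 alternatives, with adjusted p of up to 0.872. That of Psma2 was lost in 6 of 15 (up to 0.265), of Psmd10 in 3 of 14 (up to 0.306) and of Psmd11 in 1 of 15 (0.0523). Psmc1 (ENSMUSG00000021178.9, chromosome 12, 100110154 to 100123405), a base ATPase gene, measured 50.0, 67.5 and 82.6 CPM in tBHQ libraries, against 21.7, 26.5 and 46.4 CPM in DMSO libraries. All tBHQ libraries were above all DMSO libraries (log2 fold change 1.20 ± 0.26, adjusted p = 7.72e-05). Psmc3, another ATPase gene, measured 62.0, 106 and 171 CPM in tBHQ libraries, against 54.2, 69.8 and 105 CPM in DMSO libraries, with wide overlap (0.52 ± 0.19, adjusted p = 0.0249, and up to 0.450 over 15 alternatives). Psmd8 measured 109, 153 and 174 CPM in tBHQ libraries, against 80.5, 104 and 126 CPM in DMSO libraries, with overlap (0.55 ± 0.17, adjusted p = 0.00627, and up to 0.288 over 15 alternatives). Psmb5 (0.32 ± 0.23), Psmb6 (0.08 ± 0.16) and Psmb7 (-0.48 ± 0.21) did not pass.

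Set against NoStim libraries, which had neither LPS nor compound, tBHQ libraries with LPS differed in 2 proteasome genes. Of 38 genes 2 were higher (5.26%) and 0 lower, against 4.76% of all tested genes higher and 3.55% lower. The share that was higher was near the background. Psmc1 measured 50.0, 67.5 and 82.6 CPM in tBHQ libraries, against 25.1, 35.7 and 58.9 CPM in NoStim libraries, with some overlap (log2 fold change 0.81 ± 0.24, adjusted p = 0.0198), and the call was lost in 5 of 14 alternatives, with adjusted p of up to 0.339. Psme2 measured 154, 216 and 230.0 CPM in tBHQ libraries, against 104, 159 and 191 CPM in NoStim libraries, with overlap (0.40 ± 0.13, adjusted p = 0.0441). That second call was lost in 13 of 14 alternatives, with adjusted p of up to 0.718. These values share their libraries with both comparisons above.

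**Figure D5:**
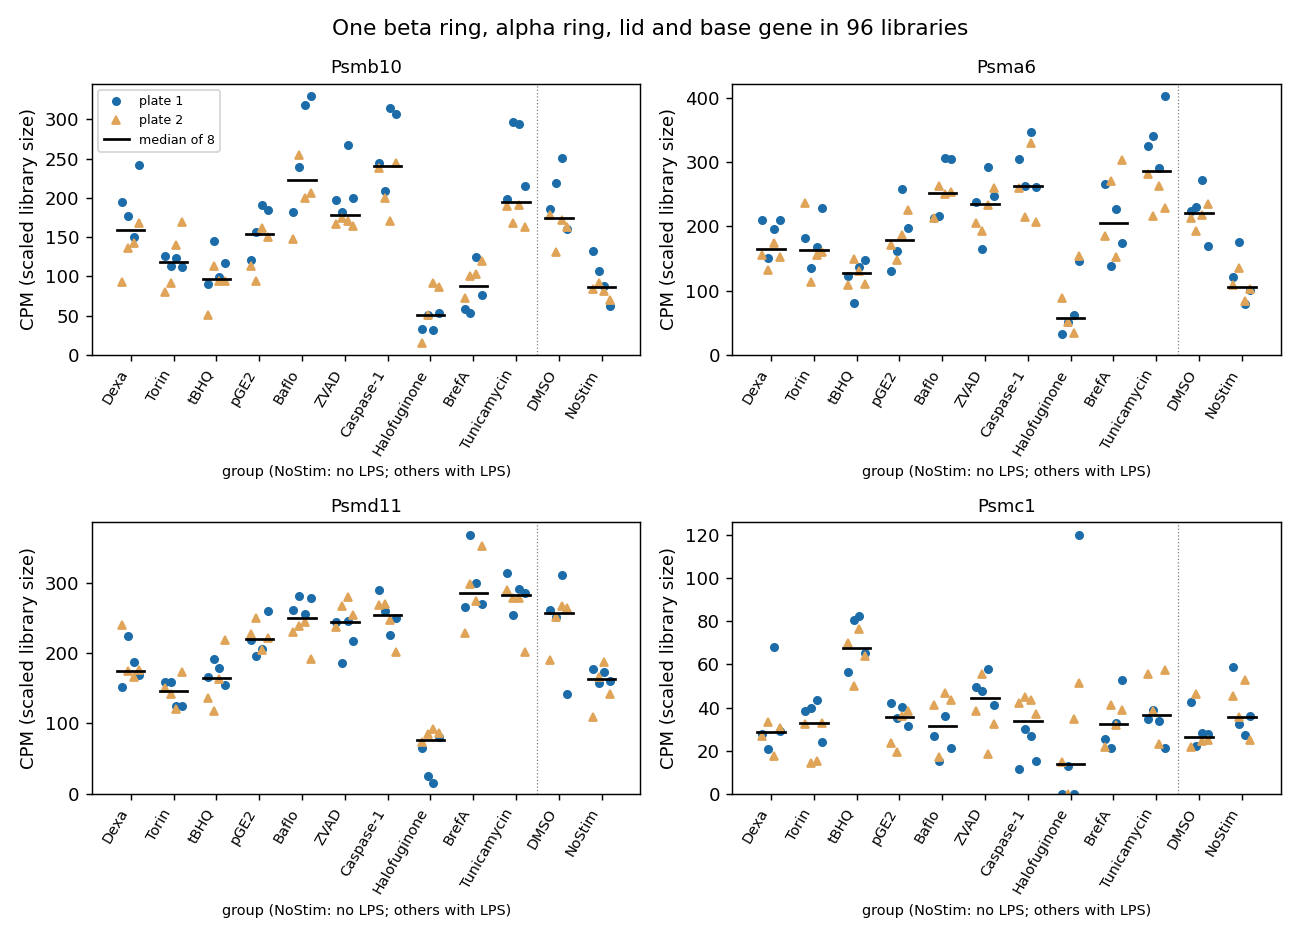
Level of the beta ring gene Psmb10, the alpha ring gene Psma6, the lid gene Psmd11 and the base gene Psmc1 in CPM (vertical axes, from 0) in each library by group (horizontal axes), circles for plate 1, triangles for plate 2 and a line at the median of 8. Psmc1 in tBHQ libraries lies between 50.0 and 82.6 CPM, above the DMSO libraries, while the medians of Psmb10, Psma6 and Psmd11 are lowest in Halofuginone libraries.

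Torin lowered 6 proteasome genes and raised 0, against 7.11% of all tested genes lower and 9.61% higher. Those that fell made up 15.8% of the 38 genes, and the median over the genes was -0.28, against -0.02 over all genes. Psmb3, a beta ring gene without a proteolytic site, measured 24.8, 28.3 and 38.5 CPM in Torin libraries, against 48.2, 64.0 and 81.2 CPM in DMSO libraries. The ranges did not overlap, and its log2 fold change was -1.12 ± 0.24 (adjusted p = 0.000130, and 0.0690 on plate 1 alone). Psmd6 measured 7.10, 28.1 and 48.3 CPM in Torin libraries, against 42.6, 54.3 and 88.9 CPM in DMSO libraries, with overlap (-0.86 ± 0.25, adjusted p = 0.00778, and up to 0.156 over 15 alternatives). Psmd11 measured 119.9, 146 and 174 CPM in Torin libraries, against 142, 256 and 312 CPM in DMSO libraries, with overlap at the low end of the DMSO libraries (-0.75 ± 0.14, adjusted p = 8.10e-06). Psmb10 measured 80.8, 119 and 169 CPM in Torin libraries, against 132, 175 and 251 CPM in DMSO libraries, with overlap (-0.59 ± 0.17, adjusted p = 0.00609).

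Psme2 in Torin libraries measured 213, 344 and 366 CPM, against 394, 467 and 555 CPM in DMSO libraries, with no overlap (log2 fold change -0.52 ± 0.12, adjusted p = 0.000666). Psma4 also fell (-0.50 ± 0.15, adjusted p = 0.00954). Calls of Psma4, Psmb10, Psmd6 and Psme2 were lost on plate 2 alone, where 3 genes were called. None of the ATPase genes of the base passed in Torin libraries, and their log2 fold changes lay between -0.19 and 0.25. Psmb5 (-0.64 ± 0.27, adjusted p = 0.0825), Psmb6 (0.18 ± 0.16) and Psmd14 (-0.25 ± 0.25) did not pass either.

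BrefA lowered Psmb10 and Psme2 and raised Psmb6. That was 1 gene higher (2.63%) and 2 lower (5.26%) of 38, under the 8.08% of all tested genes higher and 9.25% lower. With RLE scaling 2 were higher and 2 lower. Psmb10 measured 53.4, 88.4 and 125 CPM in BrefA libraries, against 132, 175 and 251 CPM in DMSO libraries, with no overlap. Its log2 fold change was -1.003 ± 0.169 (adjusted p = 4.88e-07), with -1.34 on plate 1 alone and -0.70 on plate 2 alone. Psme2 measured 231, 264 and 321 CPM in BrefA libraries, against 394, 467 and 555 CPM in DMSO libraries, again with no overlap (-0.78 ± 0.12, adjusted p = 6.64e-08). Psmb6 measured 219, 273 and 395 CPM in BrefA libraries, against 156, 201 and 241 CPM in DMSO libraries, with overlap (0.54 ± 0.15, adjusted p = 0.00535, and 0.368 on plate 1 alone). The copies named Psmb6-ps and Psmb6-ps2 may share its reads. Psmc6 (0.60 ± 0.23, adjusted p = 0.0519) and Psmd14 (0.55 ± 0.22, adjusted p = 0.0743) lay just beyond the threshold.

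In pGE2 libraries 0 genes rose and 2 of 38 fell (5.26%), against 5.2% of all tested genes higher and 5.98% lower. The share that fell was near the background. Psme2 measured 289, 311 and 349.5 CPM in pGE2 libraries, against 394, 467 and 555 CPM in DMSO libraries, with no overlap (log2 fold change -0.55 ± 0.12, adjusted p = 0.000226, and 0.0678 on plate 2 alone). Psmd7, a lid gene, measured 89.7, 114 and 180.3 CPM in pGE2 libraries, against 129.8, 173 and 239.8 CPM in DMSO libraries (-0.44 ± 0.16, adjusted p = 0.0494). Its ranges overlapped and the call was lost in 11 of 15 alternatives, with adjusted p of up to 0.925. Psmb10 did not pass (-0.30 ± 0.16, adjusted p = 0.259).

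Tunicamycin blocks N-linked glycosylation in the endoplasmic reticulum. In its libraries 1 of 38 proteasome genes was called higher (2.63%) and 0 lower. Of all tested genes 2.8% were higher and 1.57% lower, so that the share was near the background. Psmc2, a base ATPase gene, measured 75.3, 119 and 155 CPM in Tunicamycin libraries, against 55.6, 70.5 and 109 CPM in DMSO libraries, with overlap. Its log2 fold change was 0.59 ± 0.19 (adjusted p = 0.0483), and the call was lost in 11 of 16 alternatives, with adjusted p of up to 0.877. Among these was the fit without Tunicamycin library F of plate 2 (0.60, adjusted p = 0.0501). Psme2 did not differ past the threshold in Tunicamycin libraries, where it measured 216, 491 and 590.1 CPM, against 394, 467 and 555 CPM in DMSO libraries (-0.03 ± 0.12, adjusted p = 0.942). The library with 216 CPM, library F of plate 2, was below every DMSO library, while the other Tunicamycin libraries lay among the DMSO libraries or above them. Without that library the log2 fold change of Psme2 was 0.08 (adjusted p = 0.757). Over the 38 genes the median log2 fold change in Tunicamycin libraries was 0.18, against 0.001 over all genes, and 29 were positive. In Caspase-1 libraries the median was 0.23, against 0.009 over all genes, and 28 were positive. Baflo libraries had a median of 0.11, against -0.004 over all genes, with 24 positive. In Torin and Halofuginone libraries 7 and 6 of the 38 genes were positive. These medians and counts were given no test.

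In Dexa, Baflo, ZVAD and Caspase-1 libraries no proteasome gene passed edgeR's test. At an unadjusted p under 0.05 the counts were 5 in Dexa libraries, 2 in Baflo libraries, 0 in ZVAD libraries and 6 in Caspase-1 libraries, and DESeq2 called 0, 0, 0 and 1 in the same order. Of all tested genes 1.95% were higher and 1.61% lower in Dexa libraries, and 1.39% were higher and 1.51% lower in Caspase-1 libraries. In Baflo libraries 0% were higher and 0% lower, and in ZVAD libraries likewise 0% and 0%. Psmb10 was the gene DESeq2 called in Caspase-1 libraries. It measured 171, 241 and 314 CPM in Caspase-1 libraries, against 132, 175 and 251 CPM in DMSO libraries, with wide overlap (log2 fold change 0.40 ± 0.15, adjusted p = 0.108 by edgeR, 0.0432 by DESeq2 and 0.0475 by edgeR on the compared groups alone).

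In Dexa libraries Psme1 measured 57.3, 90.7 and 427 CPM, against 73.7, 107 and 149 CPM in DMSO libraries. The high values were those of library G on both plates, 322 CPM on plate 1 and 427 CPM on plate 2, and the other 6 libraries lay between 57.3 and 93.4 CPM. The log2 fold change was 0.62 ± 0.30 (adjusted p = 0.356), and it was -0.21 without the libraries of that position. Psme2 measured 359.8, 414 and 466 CPM in Dexa libraries, against 394, 467 and 555 CPM in DMSO libraries (-0.16 ± 0.12, adjusted p = 0.670).

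Taken over the 12 groups, the median level of Psme2 was lowest in Halofuginone libraries (145 CPM), followed by NoStim (159 CPM), tBHQ (216 CPM), BrefA (264 CPM), pGE2 (311 CPM), Torin (344 CPM), Dexa (414 CPM), ZVAD (435 CPM), DMSO (467 CPM), Baflo (479.7 CPM), Tunicamycin (491 CPM) and Caspase-1 libraries (559.5 CPM). The ranges of neighbours overlapped at every step of this order except between tBHQ and BrefA libraries. Psme1 and Psme3 were called in no comparison and Psme4 in the tBHQ comparison only. Psme1 medians lay between 57.0 and 134 CPM, Psme3 medians between 13.5 and 28.2 CPM and Psme4 medians between 33.0 and 64.3 CPM. Psmb11, known as a beta subunit of the thymus, was counted 775 times, and its median lay between 15.0 and 36.7 CPM in the 12 groups with no call in any comparison.

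Genes around the proteasome were taken from lists of the pathway, chosen with earlier results of these data known. Psmb8, an immunoproteasome subunit, measured 165, 197 and 248 CPM in DMSO libraries, against 67.0, 126 and 154 CPM in NoStim libraries, with no overlap (log2 fold change 0.82 ± 0.17, adjusted p = 2.53e-05). It was lower than in DMSO libraries in Torin (-0.64 ± 0.17), tBHQ (-0.69 ± 0.17), Halofuginone (-1.84 ± 0.26) and BrefA libraries (-1.36 ± 0.18). Psmb9 had 12 counts in Halofuginone libraries and 30 counts in DMSO libraries and was too low to be tested. Of 10 tested genes of peptide loading onto MHC class I, 4 rose under LPS and 0 fell, against 19.5% and 16.6% of all tested genes. Tap1, a peptide transporter gene, rose by 1.61 ± 0.20. Of the same 10 genes, 0 rose and 4 fell in tBHQ libraries (all tested genes 17.3% and 19.1%). In Halofuginone libraries 2 rose and 4 fell (15.3% and 25%), and in BrefA libraries 0 rose and 3 fell (8.08% and 9.25%). Tap1 fell in tBHQ (-1.41 ± 0.20), Halofuginone (-2.06 ± 0.32) and BrefA libraries (-2.10 ± 0.22). Its totals were 275 counts in DMSO, 104 in tBHQ, 17 in Halofuginone and 63 in BrefA libraries.

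Of 14 ubiquitin and shuttle genes, 0 rose and 5 fell under LPS, against 19.5% and 16.6% of all tested genes. Zfand2a, whose product binds the proteasome under protein stress, fell most (-2.71 ± 0.41) and the polyubiquitin gene Ubb fell too (-0.62 ± 0.13). Of the same 14 genes, 4 rose and 0 fell in tBHQ libraries (all tested genes 17.3% and 19.1%). In Halofuginone libraries 2 rose and 4 fell (15.3% and 25%). In Torin libraries 4 rose and 0 fell (9.61% and 7.11%), and in BrefA libraries 3 rose and 0 fell (8.08% and 9.25%). Zfand2a rose in tBHQ (4.15 ± 0.36), Halofuginone (2.75 ± 0.54), Torin (2.63 ± 0.44) and BrefA libraries (1.62 ± 0.48). These values and its fall under LPS rest on 12 Zfand2a counts over the 8 DMSO libraries (median 4.83 CPM). Its totals were 98 counts in NoStim, 238 in tBHQ, 65 in Torin, 39 in BrefA and 23 in Halofuginone libraries. Ubb rose in Torin (1.21 ± 0.13), tBHQ (1.09 ± 0.13), BrefA (0.97 ± 0.13), pGE2 (0.69 ± 0.13), Tunicamycin (0.48 ± 0.13) and Caspase-1 libraries (0.42 ± 0.13). Of 7 tested assembly and regulation genes, 3 fell in Halofuginone libraries (Psmg4, Shfm1 and Pomp) and 0 rose, against 25% and 15.3% of all tested genes. Pomp, the maturation factor of the core, fell by 1.31 on the log2 scale. Of 6 tested genes of the NRF1 and NRF2 axis, which controls proteasome genes in stressed mammalian cells, 3 rose and 1 fell in Halofuginone libraries, against the same 15.3% and 25%. Nfe2l1, the gene of NRF1, rose there (0.83 ± 0.22) and in BrefA libraries (0.53 ± 0.19). Of the same 6 genes, 4 rose and 1 fell under LPS, against 19.5% and 16.6% of all tested genes. In BrefA libraries 4 rose and 2 fell (all tested genes 8.08% and 9.25%). In Torin libraries 3 rose and 1 fell (9.61% and 7.11%), and in tBHQ libraries 2 rose and 1 fell (17.3% and 19.1%). Fewer were called in the other comparisons.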

How the data were processed

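RNA was measured in 96 libraries, 8 per group in 12 groups, as deposited by the authors in one table of counts per gene, with no normalization. Reads were aligned with BWA to mm10, per the submitters' processing notes. Annotation, use of strand and collapse of molecular identifiers are not stated in the sources used here, and intervals cover counting error only. Library totals ranged from 80196 to 379198 counts.

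From these counts, edgeR 4.0.16 in R 4.3.3 was run with TMM scaling and its default filter on low counts, leaving 4963 genes. The quasi-likelihood F test had group and plate as terms over all 96 libraries, with Benjamini-Hochberg adjustment over all genes and a threshold of 0.05. SEs were derived from the F statistic. CPM used TMM-scaled library sizes. The script was tested on simulated data. Alternatives were RLE scaling, no filter, a filter at 20 CPM, no plate term, a replicate block, each plate alone, DESeq2 1.42.0, same-named libraries summed, totals without Rn45s and Lars2, the compared groups alone, Tunicamycin plate 2 F left out and each replicate position left out. Any tested member could be named with its fold change. Levels were to be given for Psme1 to Psme4, Psmb5, Psmb6, Psmb7, Psmb10, Psmd14 and, per comparison, the 4 called members with the largest rise and the 4 with the largest fall. Of other listed genes the 2 largest called changes each way could be named. Levels of Psmb11, counts of Psmc4, Zfand2a and Tap1, and Ubb, Pomp and Nfe2l1 were chosen after their values were seen. The members and lists were chosen with earlier results of these data known.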

Additional observations from a re-analysis of the deposited data

Results flagged for a closer look

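In 12 of 197 groups of 8 libraries examined, 1 library lay far from the others, its gap to the nearest one exceeding Dixon's 95% limit for the group's range. Chance gives about 1 in 20 such groups. Among activator genes, Psme1 reached 271.8 CPM in a NoStim library, where the next library had 153 CPM. It reached 202 CPM in a Tunicamycin library, where the next had 127 CPM. Psme3 reached 52.0 CPM in a NoStim library and 56.8 CPM in a Torin library, where the next libraries had 28.6 and 27.9 CPM. Psme4 reached 111 CPM in a Baflo library, where the next had 68.0 CPM.

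In the core, Psmb10 reached 267 CPM in a ZVAD library, where the next had 200.4 CPM, and Psmb6 was as low as 104 CPM in a Dexa library, where the next had 166 CPM. Summed over a role, the alpha ring was lowest at 991 CPM in a pGE2 library (next 1100 CPM). The beta ring was highest at 1275 CPM in a DMSO library (next 1052 CPM) and at 1329 CPM in a ZVAD library (next 1040 CPM). In ZVAD libraries the base was highest at 788 CPM (next 667 CPM) and the lid lowest at 668 CPM (next 773 CPM).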

How the results depend on the processing

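Of 750 recomputed values of the 51 calls, 621 kept the call, 129 lost it and 0 changed direction, and the cause was not tested. Halofuginone's 20 calls became 13 with the compared groups alone, where only 18 proteasome genes passed the filter and, of the 20, Psmd1 was tested and lost the call, and 12 on plate 1 alone. Torin's 6 became 3 on plate 2 alone, and tBHQ's 11 became 5 on plate 1 alone and 7 on plate 2 alone. BrefA's 3 became 5 with DESeq2. Caspase-1's 0 became 1 with DESeq2 and 1 with the compared groups alone. Tunicamycin's 1 became 2 with DESeq2, and 0 with Rn45s and Lars2 left out, the compared groups alone, no filter, no plate term, either plate alone or libraries summed. The 2 calls of pGE2 became 1 with RLE scaling, Rn45s and Lars2 left out, the filter at 20 CPM, no filter, no plate term or libraries summed, and 0 on plate 2 alone. The 2 calls of tBHQ against NoStim became 1 with DESeq2, RLE scaling, Rn45s and Lars2 left out, the compared groups alone, either filter setting, no plate term, libraries summed or plate 1 alone (there Psma2, lower), and 0 on plate 2 alone. Leaving out each replicate position gave 3 to 5 calls for BrefA, 3 to 6 for Torin, 0 to 1 for Tunicamycin, 1 for pGE2, 5 to 11 for tBHQ and 0 to 1 for tBHQ against NoStim. The 3 calls of Torin and the 5 of tBHQ came without replicate position 3, and the 5 of BrefA without position 2. Libraries of 1 plate and letter deviated together with DMSO libraries (r over 0.1) in 23 of 80 pairs, and no pairing was assumed. With same-named libraries of both plates summed, 20 calls were made for Halofuginone, 6 for Torin, 10 for tBHQ, 5 for LPS and 3 for BrefA. With the replicate block the calls were 20 for Halofuginone, 6 for Torin, 10 for tBHQ, 4 for BrefA, 2 for pGE2 and 1 for Tunicamycin. No paired analysis was possible against NoStim because those libraries carry other letters. Halofuginone libraries had the fewest proteasome counts, with a median of 147.5 per library.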
